A study of Danio rerio with 16 samples.

Results

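The miR-17, miR-18, miR-20 and miR-93 miRNAs of zebrafish were followed in the liver of females that were fasted, exposed to the antidepressant fluoxetine (FLX), or both. Members were chosen by name alone, as every array entry of the names dre-miR-17, dre-miR-18, dre-miR-20 or dre-miR-93 with any letter or arm, which gave 10 of the 248 miRNAs on the array. They were dre-miR-17a-5p and 17a-3p, dre-miR-18a, 18b-5p, 18b-3p and 18c, dre-miR-20a-5p, 20a-3p and 20b, and dre-miR-93. The FAST/FLX group was fasted and held in water with 540 ng/L FLX, the FED/FLX group was fed and held in the same concentration, the FAST group was fasted without FLX, and the FED group was fed without FLX. Each group had 4 arrays, and every exposure ended on day 7. All fish were adult females, bought from a supplier and of an age judged from their size, and each sample pooled a pair of livers. Each group was kept in 1 tank, so that treatment and tank cannot be told apart.

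Members of this family are made from polycistronic genes, in which a single primary transcript is cut into several miRNA hairpins. dre-miR-17a-5p, dre-miR-20a-5p, dre-miR-20b and dre-miR-93 carry the same seed, the short stretch near the 5′ end that pairs with target mRNAs, while the miR-18 members carry a closely related one. In mammals the family is known for promoting cell proliferation and restraining cell cycle inhibitors, and it is made in many tissues, liver included. The 3p entries are the opposite strands of the hairpins, which are usually degraded.

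The RefSeq annotation of the zebrafish genome placed the members in 4 groups of neighbouring miRNA genes. The first holds mir92a-1, mir19b, mir20a, mir19a, mir18a and mir17a-1, and the second mir25, mir19d and mir93. The third holds mir363, mir19c, mir20b and mir18c, and the fourth mir92a-2, mir18b and mir17a-2. Mature miR-17a can thus come from 2 loci, which the array cannot separate.

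Values are RMA values, that is background-corrected and quantile-normalized log2 intensities summarised over the 60 spots of a miRNA. Detection on an array required 50% or more of the spots of a miRNA to be well above background, and a miRNA was called in a comparison at an adjusted p under 0.05. Between 64 and 92 of the 248 miRNAs were detected per array, no spot of a miRNA was saturated, and miR-122, the abundant hepatocyte miRNA, was detected on all 16 arrays. By the titles of the scanner files, each of 2 slides carried 2 arrays per group. However, arrays of FLX fish occupied only columns 2 and 4 of a slide, so that FLX and slide column cannot be told apart. Nothing in the labels says more of how the samples of a group were kept apart, so that p-values measure the spread between these samples. In liver samples, fewer cells of a type and less of a miRNA per cell cannot be told apart. Members with nearly the same sequence may bind each other's probes, and this was not tested.

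The family fell into members with a clear liver signal and members without one. dre-miR-17a-5p, 20a-5p and 20b were detected on all 16 arrays. dre-miR-93 was detected on 1 FAST/FLX, 3 FED/FLX, 2 FAST and 1 FED array, and dre-miR-18c on 1 FAST/FLX and 1 FED/FLX array. The remaining 5 members (17a-3p, 18a, 18b-3p, 18b-5p and 20a-3p) were detected on no array, and 0% of their spots were well above background anywhere. Both 3p strands of the detected pairs were therefore among the members without signal, and of the miR-18 branch dre-miR-18c alone gave any.

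Detection of dre-miR-93 turned on its 2 probes. Spots of probe 1 were well above background on no array, and those of probe 2 reached a median of 100% of spots over the arrays. On FED replicates 1 and 2 the whole miRNA had 28.6% and 3.33% of spots above background, and on the other 14 arrays the share lay close to the threshold, between 47.4% and 52.6%. The scanner software, which uses its own rule, called dre-miR-93 detected on all 16 arrays. For dre-miR-18c, too, spots of probe 1 were well above background on no array. Those of its probe 2 ranged from 0% to 100% of spots (median 9.26%). The scanner software called dre-miR-18c detected on 12 of 16 arrays, which were 4 FAST/FLX, 2 FED/FLX, 4 FAST and 2 FED arrays.

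**Figure D1:**
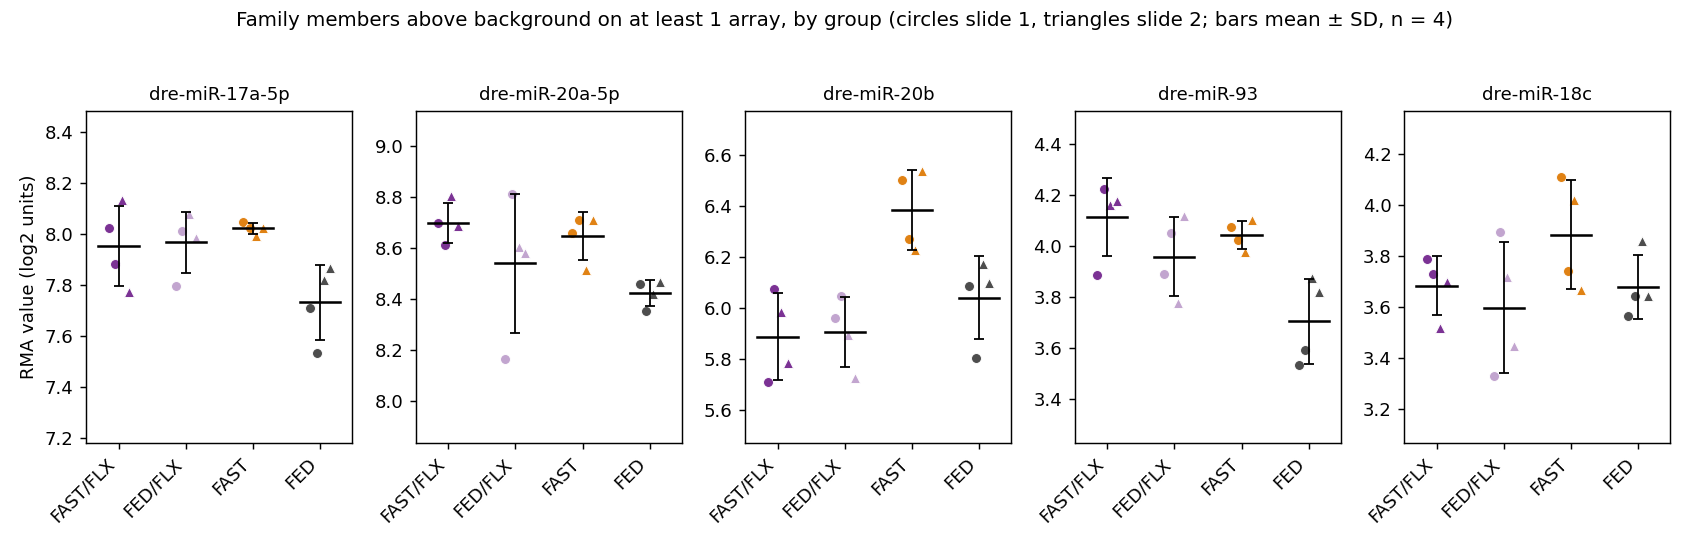
RMA values (log2 units) of the 5 members detected on at least 1 array, by group; points are arrays and bars are mean ± SD (n = 4). dre-miR-20b is highest on the 4 FAST arrays (6.23 to 6.54), and dre-miR-93 lies at 3.53 to 3.87 on the 4 FED arrays, below all FAST/FLX and FAST arrays and overlapping FED/FLX.

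dre-miR-20b was the member that differed between fasted fish with and without FLX. Its RMA values were 5.71, 6.08, 5.98 and 5.78 on the FAST/FLX arrays, against 6.50, 6.27, 6.23 and 6.54 on the FAST arrays. All 4 FAST/FLX values lay below all 4 FAST values. The mean was 5.89 ± 0.17 in FAST/FLX and 6.38 ± 0.16 in FAST livers (SD, n = 4 each), and the log2 difference was −0.50 (SE 0.11, 95% interval −0.73 to −0.26, adjusted p 0.0172 by limma), a level 1.41-fold lower in FAST/FLX livers. The exact permutation test of this single miRNA gave p = 0.0286 (two-sided, n = 4 each), the smallest that 4 against 4 arrays allow.

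dre-miR-20b was 1 of 10 members called in this comparison, beside 16 of all 248 miRNAs (6.45%). It was also the 1 member whose groups did not overlap, beside 12.9% of all miRNAs. The difference was −0.49 among the arrays of slide 1 and −0.50 among those of slide 2. Its 2 probes gave −0.46 (SE 0.13, adjusted p 0.0488 by limma over all 525 probes) and −0.53 (SE 0.11, adjusted p 0.0127). Before normalization, the scanner's total gene signal was 234 to 304 in FAST/FLX and 305 to 430 in FAST livers.

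The call rested on single arrays. The adjusted p was 0.0646 without FAST/FLX replicate 1, 0.0545 without FAST/FLX replicate 4 and 0.0627 without FAST replicate 1, with a log2 difference of −0.44, −0.47 and −0.46. Without normalization between arrays the difference was −0.26 (adjusted p 0.461), where the median of all miRNAs stood at 0.15.

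Markers of other cells moved in the same comparison without any of them being called. All 4 pancreas markers had negative log2 differences (median −0.53, smallest adjusted p 0.170), with a summed log2 level of 5.52 to 6.90 in FAST/FLX and 6.49 to 7.60 in FAST livers. Of these dre-miR-216a was detected on 15 arrays and dre-miR-375 on none. Both erythroid markers were negative (median −0.55), with a summed log2 level of 9.06 to 9.74 in FAST/FLX and 9.52 to 10.10 in FAST livers. All 4 epithelial duct markers were positive (median 0.36, smallest adjusted p 0.132 by limma), with a summed log2 level of 6.60 to 6.94 in FAST/FLX and 6.22 to 6.70 in FAST livers. Of these dre-miR-141 was detected on no array and dre-miR-200c on 1. Of the 3 endothelial markers 2 were positive and 1 negative (median 0.25, smallest adjusted p 0.132 by limma). The median was 0.04 for the mesenchymal and 0.02 for the other blood and immune markers, and dre-miR-122 had 0.08. The part of these cells in the dre-miR-20b result was not tested.

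In fed fish the values of dre-miR-20b with and without FLX overlapped. Its values were 5.96, 6.05, 5.89 and 5.72 on the FED/FLX arrays, against 6.09, 5.81, 6.17 and 6.10 on the FED arrays. The log2 difference was −0.13 (SE 0.11, 95% interval −0.37 to 0.10, adjusted p 0.534). The interaction of FLX and fasting, which is the FLX difference in fasted fish minus that in fed fish, was −0.36 (SE 0.15, adjusted p 0.310), so that a different FLX response in fed and fasted livers was not shown.

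Against FED livers, dre-miR-20b had a log2 difference of 0.34 in FAST livers (SE 0.11, 95% interval 0.11 to 0.58, adjusted p 0.170) and −0.15 in FAST/FLX livers (SE 0.11, adjusted p 0.496; 0.41 without normalization between arrays). The FAST arrays did not overlap the FED arrays, while the FAST/FLX arrays did. The FAST arrays enter both the comparison with FED and that with FAST/FLX.

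**Figure D2:**
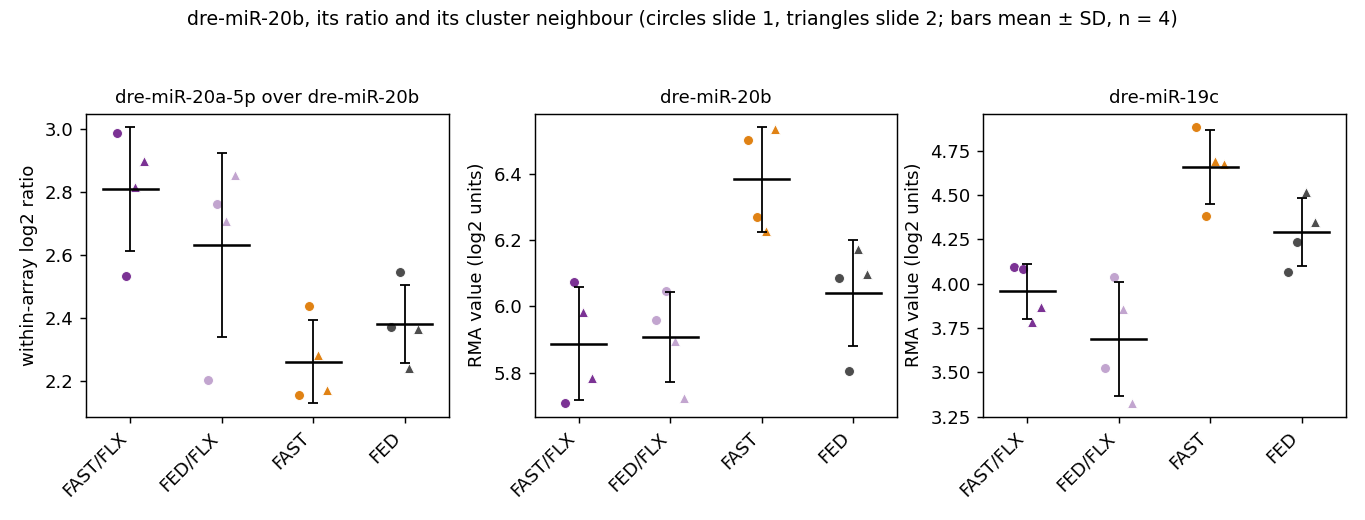
Within-array log2 ratio of dre-miR-20a-5p over dre-miR-20b, and RMA values (log2 units) of dre-miR-20b and of dre-miR-19c, by group; points are arrays and bars are mean ± SD (n = 4). The ratio lies between 2.53 and 2.99 on the FAST/FLX arrays and between 2.16 and 2.44 on the FAST arrays, without overlap.

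dre-miR-20a-5p, which shares its seed with dre-miR-20b but comes from another cluster, had no called difference here. Its values were 8.70, 8.61, 8.80 and 8.68 on the FAST/FLX arrays, against 8.66, 8.71, 8.51 and 8.71 on the FAST arrays, with a log2 difference of 0.05 (SE 0.11, 95% interval −0.17 to 0.28, adjusted p 0.870). The ratio of the 2 miRNAs within each array does not depend on the scaling between arrays by a common factor. Quantile normalization is not such a factor, so that the ratio of these values still depends on it. Without normalization between arrays, dre-miR-20a-5p had a log2 difference of 0.42 and dre-miR-20b one of −0.26. The log2 ratio of dre-miR-20a-5p over dre-miR-20b averaged 2.81 ± 0.20 in FAST/FLX and 2.26 ± 0.13 in FAST livers (SD, n = 4 each), a difference of 0.55 (SE 0.15, adjusted p 0.0317 by limma over all 1176 pairs of miRNAs detected on every array). The exact permutation p was 0.0286, and 12.2% of the 1176 pairs were called in this comparison. The share of pairs without overlap was not counted.

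The other ratios of the 3 detected members gave the following. The log2 ratio of dre-miR-17a-5p over dre-miR-20b differed between FAST/FLX and FAST livers by 0.43 (SE 0.14, adjusted p 0.0572) and between FED/FLX and FED livers by 0.37 (SE 0.14, adjusted p 0.0528). Both missed the adjusted threshold, which 32.5% of all pairs passed in FED/FLX against FED livers. The groups did not overlap in either case (exact permutation p = 0.0286 each, n = 4), but the share of all pairs without overlap was not counted. In FAST/FLX against FAST livers the ratio reuses the dre-miR-20b values called above. The ratio of dre-miR-17a-5p over dre-miR-20a-5p differed by −0.12 between FAST/FLX and FAST livers (SE 0.12, adjusted p 0.585). Of 9 such tests (3 pairs of members, 3 comparisons), 1 was called, and in FAST against FED livers 0% of all pairs were.

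The neighbours of dre-miR-20b at its locus were read beside it. dre-miR-19c was called lower in FAST/FLX than in FAST livers, with values of 4.09, 4.08, 3.78 and 3.87 on the FAST/FLX arrays, against 4.88, 4.38, 4.69 and 4.68 on the FAST arrays. The groups did not overlap, and the log2 difference was −0.70 (SE 0.15, adjusted p 0.0172). It was detected on 1 FAST/FLX and 3 FAST arrays, so that the level in FAST/FLX livers is close to background. Its adjusted p was 0.0559 and 0.0545 without FAST/FLX replicates 3 and 4, and 0.0627 without FAST replicate 1. dre-miR-18c had a log2 difference of −0.20 (SE 0.13, adjusted p 0.507) and dre-miR-363 of −0.21 (SE 0.20, adjusted p 0.656), and neither was called.

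dre-miR-93 was the member that differed between livers of fish given both treatments and FED livers. Its RMA values were 3.89, 4.22, 4.16 and 4.18 on the FAST/FLX arrays, against 3.53, 3.59, 3.87 and 3.82 on the FED arrays. All 4 FAST/FLX values lay above all 4 FED values, the closest by a small margin. The mean was 4.11 ± 0.15 in FAST/FLX and 3.70 ± 0.17 in FED livers (SD, n = 4 each), a log2 difference of 0.41 (SE 0.10, 95% interval 0.20 to 0.62, adjusted p 0.0271 by limma). No fold is given, since by the detection rule 1 of 4 FAST/FLX and 1 of 4 FED arrays measured it. FAST/FLX livers had no called dre-miR-93 difference from FAST (0.07, SE 0.10, adjusted p 0.802 by limma) or FED/FLX livers (0.15, SE 0.10, adjusted p 0.524). The interaction of FLX and fasting for dre-miR-93 was −0.19 (SE 0.14, adjusted p 0.601), so that an effect particular to the combined treatment was not shown.

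It was 1 of 10 members called in this comparison, beside 12 of all 248 miRNAs (4.84%). The difference was 0.49 among the arrays of slide 1 and 0.32 among those of slide 2. Probe 2 alone, the one above background, gave 0.46 (SE 0.11, adjusted p 0.0356), and probe 1 alone gave 0.23 (SE 0.11, adjusted p 0.293). The scanner's total gene signal was 72.7 to 75.6 in FAST/FLX, 39.5 to 61.0 in FED/FLX, 50.7 to 63.3 in FAST and 23.3 to 39.5 in FED livers. The FAST/FLX arrays also had more miRNAs detected in all, 83 to 92 against 64 to 77 on the FED arrays, and its part in the result was not tested. No cell type marker was called in this comparison. The hepatocyte marker miR-122 was higher on every FAST/FLX array (12.32 to 12.33) than on every FED array (11.92 to 12.14), with a log2 difference of 0.29 (adjusted p 0.324). FED/FLX replicates 2, 3 and 4 and FAST replicate 2 stood in that same narrow range. Quantile normalization gives every array the same highest spot values. Whether this limited miR-122, here or in the other comparisons, was not tested. The median log2 difference was 0.16 for the endothelial, 0.14 for the mesenchymal, −0.16 for the other blood and immune, 0.03 for the epithelial duct and −0.09 for the pancreas markers, of which dre-miR-216a had −0.62. The erythroid markers were of opposite sign, dre-miR-451 at 0.31 and dre-miR-144 at −0.29. The part of these cells in the dre-miR-93 result was not tested.

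The dre-miR-93 call was lost when any of 5 arrays was left out. The adjusted p was 0.0880, 0.0874 and 0.0786 without FAST/FLX replicates 2, 3 and 4, and 0.0660 and 0.0708 without FED replicates 1 and 2. The log2 difference stayed between 0.36 and 0.49 over all 16 such fits. With each array's 75th percentile of spot signals set equal it was 0.17 (adjusted p 0.220), where the median of all miRNAs stood at −0.50.

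Other members also ranked above FED in this comparison. dre-miR-17a-3p, 18a and 18b-5p also had all FAST/FLX values above all FED values, as did dre-miR-20a-5p, which made 5 of 10 members without overlap, beside 16.5% of all miRNAs. None of these 4 was called, and 3 of them were at background on every array.

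**Figure D3:**
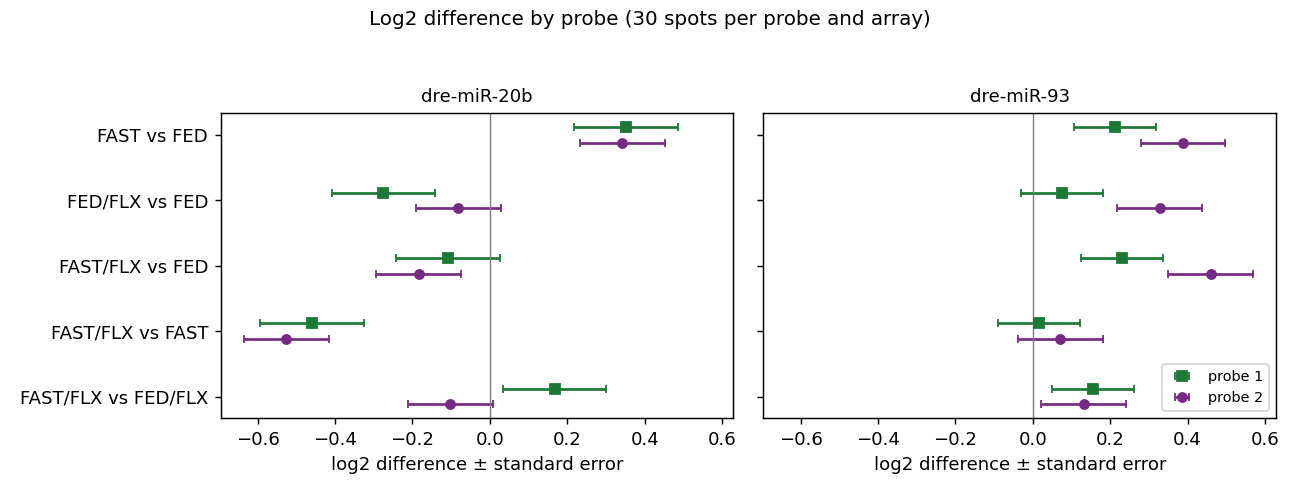
Log2 difference ± standard error of dre-miR-20b and dre-miR-93 for each of their 2 probes (30 spots per probe and array), in 5 comparisons. Both dre-miR-20b probes lie below 0 in FAST/FLX against FAST (−0.46 and −0.53), and in FAST/FLX against FED dre-miR-93 reaches 0.46 with probe 2 and 0.23 with probe 1.

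In fasted fish the 4 seed-sharing members lay above their FED values without a call. Of the 10 members 0 were called in FAST against FED livers by limma, beside 0% of all miRNAs, and 3 members had an unadjusted p under 0.05, beside 11.7% of all miRNAs. The comparison of groups named in the study's methods (Tukey) passed 3 members before any adjustment over miRNAs, which were dre-miR-17a-5p, dre-miR-20b and dre-miR-93, beside 4.03% of all miRNAs. The study also required a 2-fold change, which was not applied in this comparison and which no member reached. The values of 4 members, dre-miR-17a-5p, dre-miR-20a-5p, dre-miR-20b and dre-miR-93, were higher on every FAST array than on every FED array, beside 8.47% of all miRNAs without overlap. Each kept a positive difference under all 3 other scalings of the arrays. Outside the family, the cluster neighbours dre-miR-92a (log2 difference 0.29, adjusted p 0.170 by limma) and dre-miR-25 (0.21, adjusted p 0.568) behaved alike. Both had every FAST value above every FED value, dre-miR-25 by a small margin. Of 10 listed entries of miR-19, miR-25, miR-92 and miR-363, 5 had a positive and 5 a negative difference. Among the negative were dre-miR-19a-3p (−0.23, adjusted p 0.718 by limma) and dre-miR-19b-3p (−0.002, adjusted p 0.997). Their genes flank mir20a, and both were detected on all 16 arrays. At the locus of dre-miR-20b, dre-miR-363 (0.45, adjusted p 0.390) and dre-miR-19c (0.37, adjusted p 0.376) were positive, but were detected on only 6 and 5 arrays.

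Cell type markers moved in the same comparison, and none was called. Both erythroid markers had positive log2 differences (median 0.56, smallest adjusted p 0.394), with a summed log2 level of 9.52 to 10.10 in FAST and 8.28 to 9.52 in FED livers. Of the 4 pancreas markers 3 were positive (median 0.36), with 6.49 to 7.60 in FAST and 6.24 to 7.31 in FED livers. All 4 epithelial duct markers were negative (median −0.31), with 6.22 to 6.70 in FAST and 6.31 to 7.02 in FED livers. The median was −0.04 for the endothelial, 0.07 for the mesenchymal and −0.15 for the other blood and immune markers, and dre-miR-122 had 0.21. The part of these cells in the values of the family was not tested.

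dre-miR-17a-5p had values of 8.05, 8.02, 7.99 and 8.03 on the FAST arrays, against 7.71, 7.53, 7.82 and 7.87 on the FED arrays. The FAST values lay within a narrow range above those of FED. The log2 difference was 0.29 (SE 0.09, 95% interval 0.10 to 0.48, adjusted p 0.170), and 0.41 and 0.17 within slides 1 and 2.

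dre-miR-20a-5p had the FAST values given above, against 8.46, 8.35, 8.42 and 8.46 on the FED arrays, with a log2 difference of 0.22 (SE 0.11, adjusted p 0.394). dre-miR-93 had 4.07, 4.02, 3.97 and 4.10 on the FAST arrays, against the FED values given above, with a log2 difference of 0.34 (SE 0.10, adjusted p 0.162). The differences were thus of similar size in the 4 members, from 0.22 to 0.34.

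FLX in fed fish gave no call in the family. With 10 members, 5 of them at background on every array, 0 calls cannot be told apart from the share of all miRNAs. Of the 10 members 0 were called in FED/FLX against FED livers by limma, beside 32 of all 248 miRNAs (12.9%), and 0 passed the methods' comparison, beside 12.5%. An unadjusted p under 0.05 was found for 2 members, beside 23.4% of all miRNAs. No member was without overlap, beside 12.1% of all miRNAs. dre-miR-17a-5p had values of 7.80, 8.01, 8.08 and 7.98 on the FED/FLX arrays, with a log2 difference against FED of 0.23 (SE 0.09, 95% interval 0.04 to 0.43, adjusted p 0.109). dre-miR-93 had 3.89, 4.05, 3.77 and 4.12 on the FED/FLX arrays, with a log2 difference of 0.25 (SE 0.10, adjusted p 0.114). Both overlapped the FED arrays. dre-miR-20a-5p had 8.16, 8.81, 8.60 and 8.58 on the FED/FLX arrays, the widest spread of the 4 groups for this miRNA (SD 0.27), with a log2 difference of 0.12 (SE 0.11, adjusted p 0.599).

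The dre-miR-18c values were 3.79, 3.73, 3.52 and 3.70 in FAST/FLX, 3.33, 3.89, 3.72 and 3.45 in FED/FLX, 4.11, 3.74, 4.02 and 3.67 in FAST, and 3.57, 3.64, 3.86 and 3.64 in FED livers. The 4 groups overlapped throughout. The members at background ranged from 1.76 (dre-miR-20a-3p) to 3.54 (dre-miR-18b-3p), and no fold is given for them.

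The other values of FAST/FLX livers gave no call. In FAST/FLX against FED livers dre-miR-17a-5p had values of 8.03, 7.88, 8.13 and 7.77 on the FAST/FLX arrays, a log2 difference of 0.22 (SE 0.09, adjusted p 0.218), and dre-miR-20a-5p had 0.27 (SE 0.11, adjusted p 0.210). In FAST/FLX against FED/FLX livers 0 of 10 members were called by limma, beside 1.61% of all miRNAs. An unadjusted p under 0.05 was found for 1 member, beside 11.7%, and 1 passed the methods' comparison, beside 4.44%. The 1 member without overlap there, beside 5.24% of all miRNAs, was dre-miR-20a-3p, which was at background. For the interaction 0 of 10 were called by limma, beside 1.61% of all miRNAs. An unadjusted p under 0.05 was found for 2 members, dre-miR-17a-5p (−0.30, SE 0.13, adjusted p 0.310) and dre-miR-20b, beside 12.9% of all miRNAs.

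**Figure D4:**
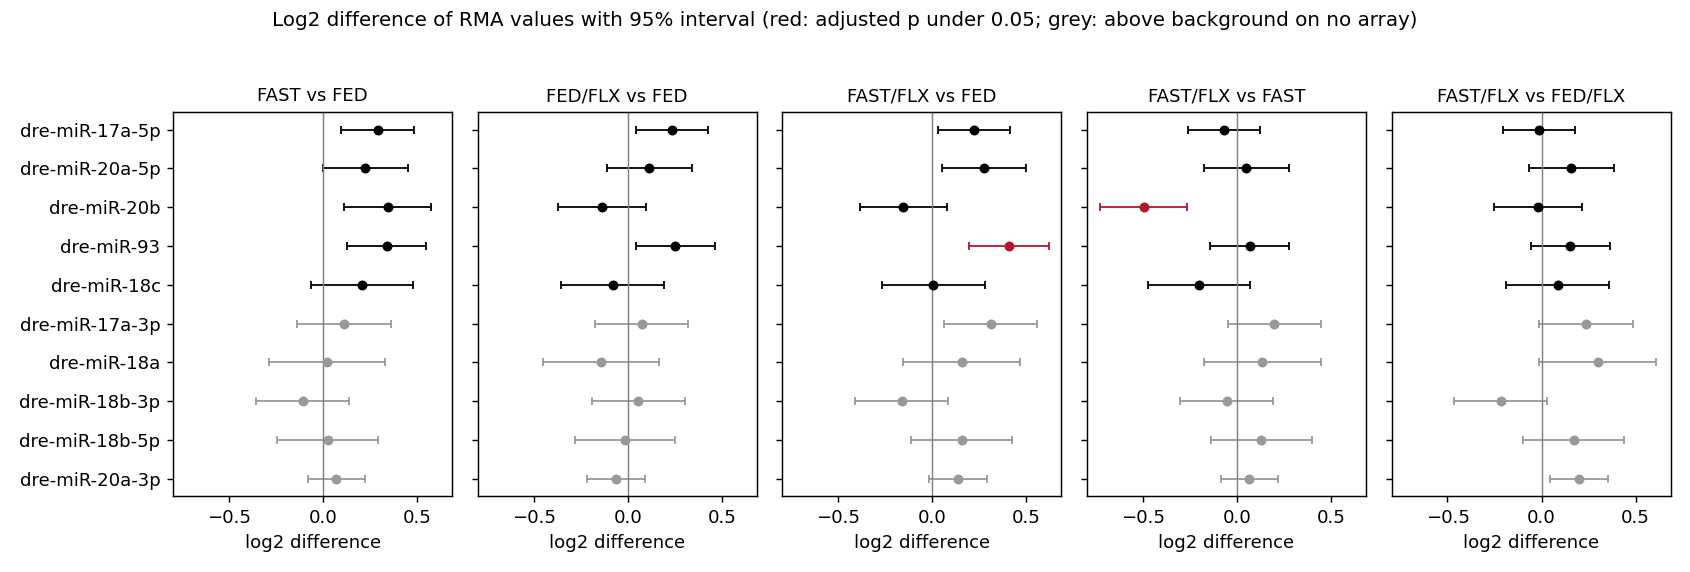
Log2 difference of RMA values with its 95% interval for the 10 members in 5 comparisons; members in grey were above background on no array, and red marks an adjusted p under 0.05. The 2 red points are dre-miR-93 in FAST/FLX against FED (0.41) and dre-miR-20b in FAST/FLX against FAST (−0.50).

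The cluster partners of the family, a list of 10 entries of miR-19, miR-25, miR-92 and miR-363, were counted beside it. In FED/FLX against FED livers 2 were called higher and 2 lower, beside 12.9% of all miRNAs. dre-miR-25, the neighbour of dre-miR-93, had values of 7.24, 6.41, 6.62 and 6.77 on the FED/FLX arrays, against 6.01, 6.09, 6.06 and 5.98 on the FED arrays, a log2 difference of 0.73 (SE 0.13, adjusted p 0.00674). dre-miR-92a, which has copies beside miR-17a at 2 loci, had a log2 difference of 0.42 (SE 0.09, adjusted p 0.00955).

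FED/FLX replicate 1 stood apart within its group. It had the highest dre-miR-25 value of the 4 FED/FLX arrays, and miR-122 at 11.54, against 12.32 to 12.33 on the other 3. It also had the highest value of the erythroid marker dre-miR-451 (10.36), whose log2 difference in FED/FLX against FED livers was 0.77 (adjusted p 0.0868). The other erythroid marker, dre-miR-144, was also highest on this array within the group, at 6.66 against 5.11, 5.96 and 4.36. Its log2 difference in FED/FLX against FED livers went the other way, at −0.30 (adjusted p 0.798 by limma). Without this array dre-miR-25 had a log2 difference of 0.57 (adjusted p 0.00479) and dre-miR-92a one of 0.35 (adjusted p 0.0307). In the family, dre-miR-17a-5p (7.80) and dre-miR-20a-5p (8.16) had their lowest FED/FLX value on this array, while dre-miR-20b and dre-miR-93 did not. Leaving it out, 0 members were called in FED/FLX against FED livers, beside 7.66% of all miRNAs. The part of red blood cells in these values was not tested.

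dre-miR-19a-3p, which lies between mir20a and mir18a, was called lower in FED/FLX than in FED livers, with a log2 difference of −0.93 (SE 0.25, adjusted p 0.0273). Its adjusted p was 0.0697 and 0.0523 without FED/FLX replicates 1 and 4, and 0.0683 and 0.0834 without FED replicates 2 and 4. dre-miR-19c was the other entry called lower, but it was detected on 1 FED/FLX and 0 FED arrays, so that no size is given. Its call was lost without FED/FLX replicate 1 and without FED replicates 3 or 4 (adjusted p 0.0589, 0.0720 and 0.0581). In FAST/FLX against FAST livers 1 partner was called, dre-miR-19c, beside 6.45% of all miRNAs. By limma 0 partners were called in FAST against FED (0% of all) and FAST/FLX against FED livers (4.84%). The same held for FAST/FLX against FED/FLX livers (1.61%) and the interaction (1.61%).

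Within the family, values over the 16 arrays ran closest for dre-miR-17a-5p and dre-miR-20a-5p (Pearson's r 0.69), which share a cluster. dre-miR-93 followed both of them (r 0.57 and 0.59), although it lies in another cluster. dre-miR-20b correlated with dre-miR-18c, its cluster neighbour, at 0.48 and with dre-miR-20a-5p at 0.14. However, dre-miR-18c was detected on only 2 of 16 arrays. It also correlated with members of other clusters, at 0.37 with dre-miR-20a-5p, 0.28 with dre-miR-17a-5p and 0.15 with dre-miR-93. Outside the family, of 46 miRNAs detected on all arrays, dre-let-7a (r 0.66), dre-miR-26a (0.57) and dre-miR-122 (0.47) were most like the mean pattern of the 3 detected members. These points share their arrays and their normalization, and the correlations are descriptions only.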

How the data were processed

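The authors hybridized liver RNA to 16 one-colour Agilent miRNA arrays and deposited the scanner output (Agilent Feature Extraction 11.0.1.1), with a background-subtracted intensity per spot and no normalization between arrays. They also deposited a table of log2 values, in which 14 of 16 columns match the scan of a sample other than the one in the heading. For 12 columns that scan belongs to another group. That table served as an alternative only. Groups here follow the titles of the scanner files, and every comparison holds only if those titles are right. Whether the titles or the headings of the table name the fish correctly was not tested. RMA values were computed with limma 3.58.1 in R 4.3.3, with the normal-exponential background model, removal of control and outlier spots, quantile normalization and median polish. Groups were compared with lmFit and eBayes over all 16 arrays, with Benjamini-Hochberg adjustment over 248 miRNAs within each comparison and no minimum fold. Single values were compared by exact permutation (two-sided). Steps were tested on simulated data. The main fits and the exact tests did not pair arrays. FED and FAST arrays of the same replicate number share slide and column, as do FED/FLX and FAST/FLX arrays. Between FED and FAST arrays of the same number, deviations from the group means correlated at 0.193, 0.265, 0.204 and 0.113. No other pair of groups had more than 2 of 4 values over 0.1. A fit with the replicate number as a block served as an alternative. All members are named, and the members and lists were chosen with earlier results of these data known. RefSeq gave gene names and neighbours only. Alternatives were other backgrounds, scalings, summaries, filters, blocks, fits and thresholds, and each array left out; each probe alone was added after seeing the data.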

Additional observations from a re-analysis of the deposited data

Results flagged for a closer look

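In the FAST/FLX group dre-miR-18b-3p had a value of 2.84 on replicate 1, against 3.12 to 3.15 on the other 3 arrays, a gap that was large for the range of the group. The miRNA was detected on no array. Of 40 groups of 4 values checked, 1 stood out in this way, and chance alone would mark about 1 in 20.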

How the results depend on the processing

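Counts of called members that moved are given with the share of all miRNAs passing under the same setting. In FAST against FED livers the count was 0, and became 3 (all lower) with spot signals at a common 75th percentile (31.5% of all), 3 with the methods' comparison (4.03%), 3 at unadjusted p (11.7%) and 6 (1 higher, 5 lower) in the deposited table by its headings (78.3%). The 3 lower at the 75th percentile (18b-3p, 18b-5p and 20a-3p) were at background on every array. The median of all miRNAs stood at −0.39 under that setting. In FED/FLX against FED livers 0 became 2 at unadjusted p (23.4%). In FAST/FLX against FED livers the count was 1. It became 5 (1 higher, 4 lower) with the 75th percentile of spots (56.9%), 3 higher without normalization (18.5%) and 4 higher at unadjusted p (16.1%). With the 75th percentile the 1 higher was dre-miR-20a-5p (adjusted p 0.0379 by limma), and dre-miR-93 lost its call. The 4 lower (18a, 18b-3p, 18b-5p and 20a-3p) were at background on every array, and the median of all miRNAs stood at −0.50. The count became 0 with total gene signals (2.02%), and on slide 1 or slide 2 alone, at 2-fold and in the deposited table (0% each). It was also 0 with detected miRNAs only (10.1%), where dre-miR-93 was not among the 3 members tested. In FAST/FLX against FAST livers the count was 1. It became 0 without normalization (3.23%), and on either slide alone, at 2-fold and in the deposited table (0% each). In FAST/FLX against FED/FLX livers 0 became 2 higher without normalization (13.7%), 1 with the methods' comparison (4.44%) and 1 at unadjusted p (11.7%); for the interaction 0 became 2 at unadjusted p (12.9%) and 7 (5 higher, 2 lower) in the deposited table (80.7%). With each array left out the count ran from 0 to 2 in FAST/FLX against FED (1.61% to 7.66% of all). In FAST/FLX against FAST it ran from 0 to 1 (0.806% to 6.45% of all). The dre-miR-17a-5p interaction turned to 0.0044 without normalization. Slides alone have fewer arrays, and no member reached 2-fold. Under the headings of the deposited table, 12 of 16 columns hold the scan of another group. Its counts thus compare other sets of arrays than the groups used here, and do not bear on these calls. For the other settings the cause was not tested. The fit with the replicate number as a block changed no call of a member: dre-miR-20b kept −0.50 (adjusted p 0.0355) in FAST/FLX against FAST and dre-miR-93 kept 0.41 (adjusted p 0.0281) in FAST/FLX against FED, and 0 members were called in the other comparisons under the block.

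Signal over background limits dre-miR-93 and dre-miR-18c, and the 5 members at background have no measured level. The number of arrays limits the precision.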
